A study of Sus scrofa with 6 samples.

Results

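The genes of TGF-beta, BMP and activin signaling were followed in the liver of pigs that had suffered intrauterine growth restriction (IUGR) and of pigs of normal birth weight. They were chosen by name, as every symbol of the deposited expression table that begins with TGFB, BMP, SMAD, INHB, ACVR, LTBP or GDF followed by a letter or digit, and a symbol found on several assembled loci was represented by the locus with the highest mean level. This gave 45 genes from 55 loci, out of 121055 assembled loci. Those with an Ensembl identifier, 22571 in number, are called known loci. The 45 genes comprised 19 ligands, 12 receptors, 6 SMADs, 4 binding proteins and 4 other proteins that share the names.

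Liver RNA was sequenced from 3 IUGR and 3 normal pigs, with 1 library per pig. All were PIC males of 150 days, drawn from litters that each gave an IUGR piglet and a normal littermate. They were housed in the same environment, on milk formula first and then on diets adjusted to body weight. Every pig had an intravenous glucose tolerance test on the day before slaughter, and all were killed after a day without feed. The birth weight was about 0.97 kg in the IUGR group and about 1.49 kg in the normal group. The tissue is a piece of whole liver, so hepatocytes, endothelium, stellate cells, macrophages and blood cells are mixed in it, and a lower value from fewer cells of a type cannot be told apart from less RNA in each cell.

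In this family, dimeric ligands are secreted, many of them in a latent form held in the extracellular matrix, and bind pairs of type II and type I receptor kinases at the cell surface. The type I receptor then phosphorylates SMAD proteins, which join SMAD4 and enter the nucleus, with SMAD2 and SMAD3 serving TGF-beta and activin, SMAD1, SMAD5 and SMAD9 serving the BMPs, and SMAD6 and SMAD7 acting as inhibitors. In liver the TGF-beta branch is best known for its action on stellate cells and matrix, and the BMP branch for the control of hepcidin, the hormone that limits iron export, by BMP6 from the sinusoidal endothelium.

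Levels are given as FPKM, which counts fragments per length of transcript and per size of library, so that genes can be set side by side. IUGR and normal pigs were compared on log2(FPKM + 1) with limma, two-sided, over the 14727 known loci with a mean of at least 0.3 FPKM, with Benjamini-Hochberg adjustment over all of them, and a gene was called when its adjusted p was under 0.05. Log2 fold changes are given as IUGR minus normal and understate the change of genes with low values. The table gives no read counts, so the depth behind a single FPKM is unknown, and for 1 gene the smallest p that an exact permutation test can reach with these 6 pigs is 0.1.

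The libraries did not stand level before any gene was considered. The median FPKM of the tested loci was 4.82, 5.81 and 5.10 in IUGR 1, 2 and 3, against 5.94, 4.26 and 3.83 in normal 1, 2 and 3, and the median log2 fold change of all tested loci was 0.15. The share of reads that mapped was higher in IUGR 2, IUGR 3 and normal 1 than in IUGR 1, normal 2 and normal 3, so each group had libraries of both kinds, here called the higher and the lower set. Scaling every library to the same median took the median of all tested loci to 0.016, and adding the mapped ratio to the model as a covariate took it to -0.044. Differences are therefore also given relative to the 0.15 of all loci or within the sets, where they rest on 1 pig against 2 and have no test.

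Of the 45 genes, 39 passed the filter on low values and 6 ligands did not. The level of the 39 varied widely in the plot of FPKM by gene, with 12 genes at a mean of at least 10 FPKM and 21 between 1 and 10 FPKM. No estimate of these loci had failed in any library. The 6 ligands under the filter were BMP7, with a mean of 0.19 FPKM in IUGR and 0.17 FPKM in normal pigs, BMP3, GDF5 and GDF7, which were lower still, and GDF3 and BMP15, which were listed at 0 in every library. BMP15 and GDF3 are known from the oocyte and the early embryo.

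**Figure D1:**
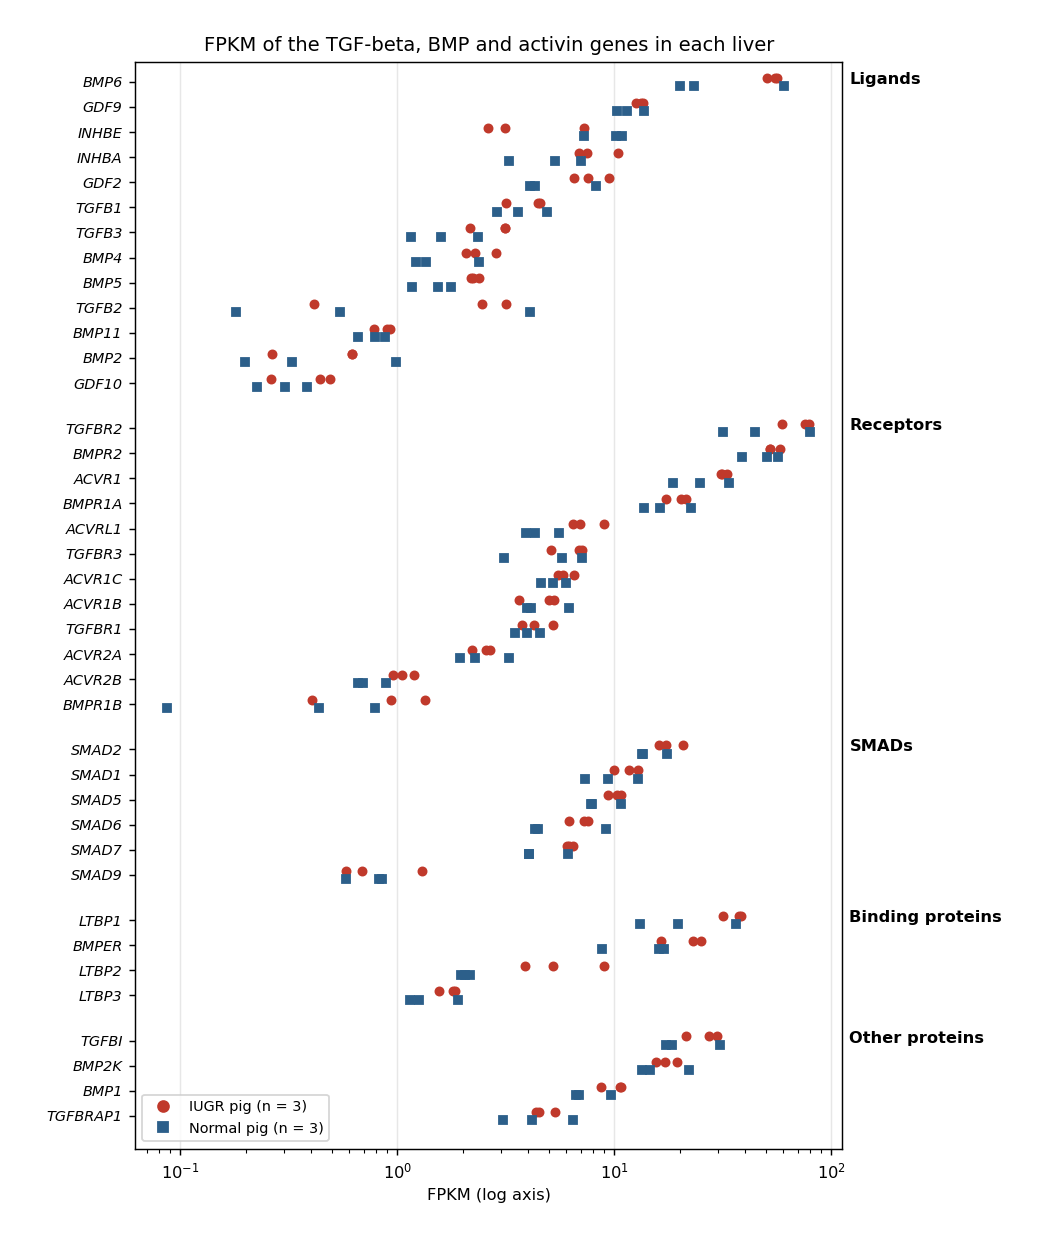
FPKM on a log axis of the 39 genes above the filter, grouped by role and ordered by mean level, with a red circle for each of the 3 IUGR pigs and a blue square for each of the 3 normal pigs. TGFBR2, BMPR2 and BMP6 stood highest, and in most rows the symbols of both groups overlap.

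None of the 39 genes was called in either direction, where 0.0204% of all tested loci were (1 locus higher, 0.00679%, and 2 lower, 0.0136%). At an unadjusted p under 0.05, limma gave 6 of the 39 higher and 1 lower in IUGR pigs, against 6.0% and 0.794% of all tested loci. The groups did not overlap for LTBP2, ACVRL1, BMP5 and ACVR2B, which were higher in every IUGR pig than in any normal pig, and for INHBE, which was lower, where 8.39% of all tested loci separated upward and 1.22% downward. The estimate was above 0 for 37 of the 39 genes and below 0 for ACVR1B and INHBE, while 79.2% of all tested loci were above 0. Set against the median of all loci, 26 genes stood above it and 13 below. The median of the 39 was 0.26, which is 0.11 above that of all loci. Between libraries of a group, the median log2 level of the 39 minus that of all tested loci had a pooled SD of 0.11. That SD is the spread of single libraries and not the error of the difference between groups. Normal 1 weighed heavily on these counts: without it 17 of the genes were higher at an unadjusted p under 0.05 (28.4% of all loci) and 24 did not overlap (51.1%). Without IUGR 1, IUGR 2 or normal 2 the count of 6 became 3, 2 and 1 (7.46%, 2.89% and 3.50% of all loci), and without IUGR 3 the genes that separated upward numbered 11 (12.9%). Scaled to the same median, 8 genes separated upward and 2 downward, against 9.48% and 6.29% of all loci.

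**Figure D2:**
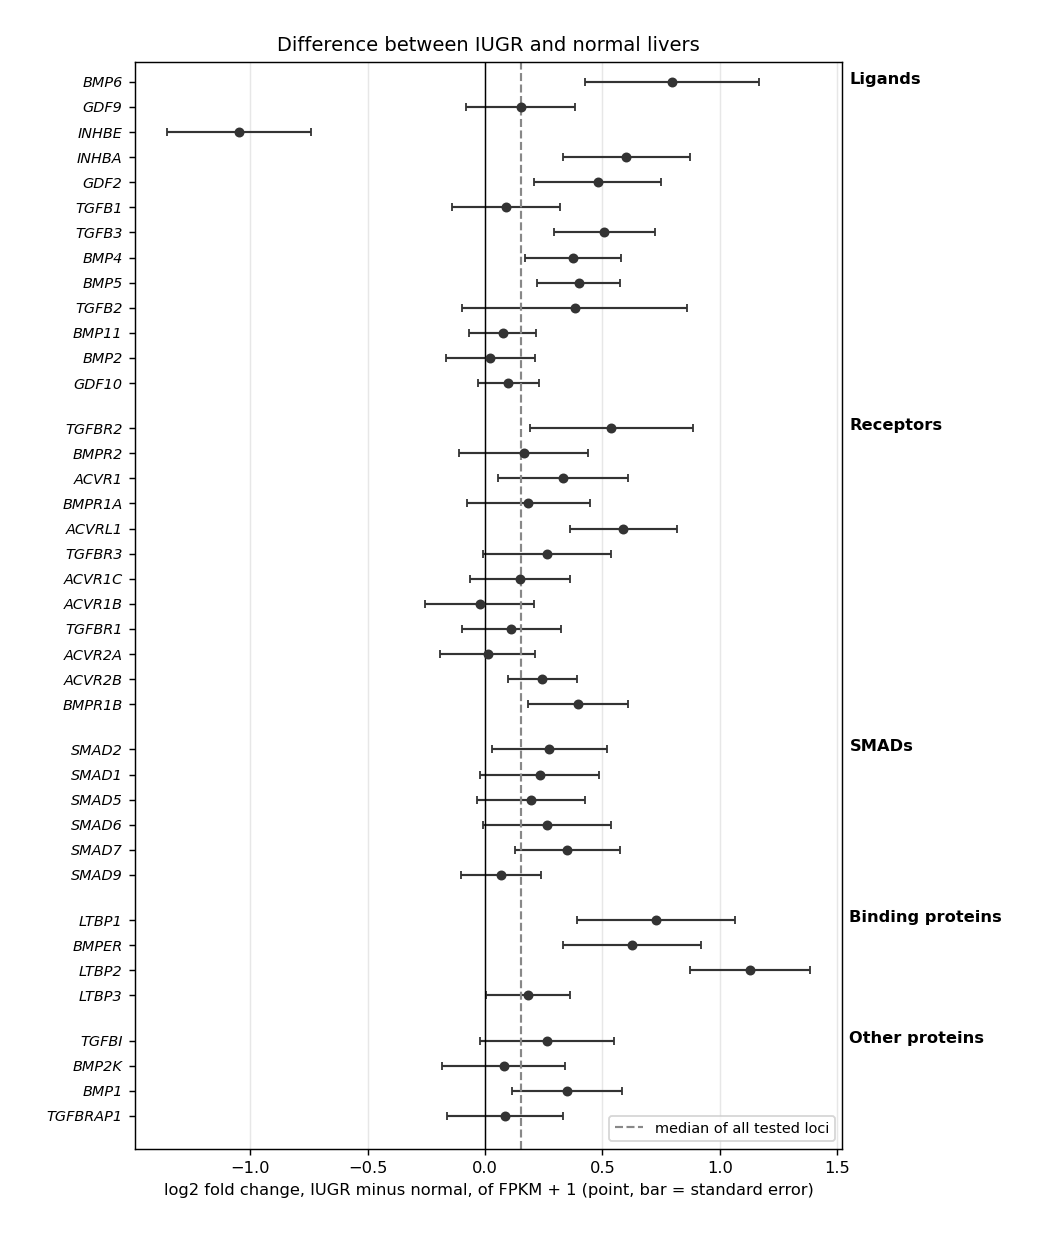
Log2 fold change of FPKM + 1, IUGR minus normal, with its standard error (3 pigs per group), for the 39 genes by role, and a dashed line at 0.15, the median of all tested loci. LTBP2 lies farthest to the right at 1.13 and INHBE farthest to the left at -1.05, and most bars cross the dashed line.

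The ligands separated into a few of moderate level and many that were barely present. BMP6, the BMP that liver endothelium makes in response to iron, had the highest level, and INHBE was the only ligand with an estimate below 0. Of the 13 ligands above the filter, 3 were higher and 1 was lower at an unadjusted p under 0.05, against 6.0% and 0.794% of all tested loci. Their median log2 fold change was 0.37.

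INHBE encodes the subunit of activin E, a ligand made mainly by hepatocytes (ENSSSCG00000000442, chromosome 5, 24694597 to 24820598 of Sscrofa10.2). It had 7.27, 3.15 and 2.62 FPKM in IUGR 1, 2 and 3, against 10.2, 10.9 and 7.28 FPKM in normal 1, 2 and 3. The groups just failed to touch, since IUGR 1 lay next to normal 3 and well above the other IUGR pigs. The means were 4.35 ± 2.54 FPKM in IUGR and 9.45 ± 1.91 FPKM in normal pigs (SD, n = 3 pigs per group), which gave a log2 fold change of -1.05 with a standard error of 0.31 (adjusted p = 0.417 by limma with Benjamini-Hochberg). The difference was -1.53 in the higher set and -0.26 in the lower set. Without IUGR 1 the gene was called at -1.41 (adjusted p = 0.0151), and over all alternatives but the replicate block its adjusted p ran from 0.0151 to 0.963. The span of its locus, 126002 bp, is shared with 21 other known loci, among them DCTN2, KIF5A and MARS1, and the table gives no strand, so that reads of genes overlapping there cannot be told apart.

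INHBA encodes the subunit of activin A (ENSSSCG00000021865, chromosome 18, 57997858 to 58030202). It had 10.4, 7.49 and 6.86 FPKM in IUGR pigs, against 5.31, 3.28 and 7.04 FPKM in normal pigs. Only normal 3 reached into the range of the IUGR pigs. Its log2 fold change was 0.60 with a standard error of 0.27 (adjusted p = 0.722 by limma), and it stood above 0 in the lower set at 0.95 and in the higher set at 0.37. Both activin subunits had similar mean levels over all pigs, 6.72 FPKM for INHBA and 6.90 FPKM for INHBE, but the ratio of INHBA to INHBE was 1.43, 2.38 and 2.62 in IUGR pigs, against 0.520, 0.302 and 0.967 in normal pigs. This ratio, chosen after the values were seen, did not overlap between the groups, and neither did INHBE alone. Scaling of a whole library leaves the ratio as it is, but its lack of overlap is not a test.

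BMP6 (ENSSSCG00000001027, chromosome 7, 5162414 to 5322738) had 56.4, 55.2 and 50.6 FPKM in IUGR pigs, against 60.7, 20.2 and 23.3 FPKM in normal pigs. The IUGR pigs lay close together, while the normal pigs were split, with normal 1 above every IUGR pig. The log2 fold change was 0.80 with a standard error of 0.37 (adjusted p = 0.744 by limma), made up of 1.34 in the lower set and -0.20 in the higher set. A second locus with the same span and identifier gave 23.7, 28.2 and 22.5 FPKM in IUGR pigs, against 29.7, 12.2 and 17.2 FPKM in normal pigs, and the sum over all loci of the symbol gave 0.66. BMP2, which acts beside BMP6 on hepcidin in mice, was close to the filter, with 0.264, 0.618 and 0.621 FPKM in IUGR pigs, against 0.992, 0.20 and 0.326 FPKM in normal pigs (log2 fold change 0.022, standard error 0.19, adjusted p = 0.981 by limma). Normal 1 was again the highest library, and the sign of this estimate turned with the scaling.

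TGFB3 (ENSSSCG00000002385, chromosome 7, 105178633 to 105299441) was the TGF-beta isoform with the largest difference. It had 3.13, 3.12 and 2.17 FPKM in IUGR pigs, against 2.36, 1.15 and 1.59 FPKM in normal pigs, with IUGR 3 just below normal 1. The log2 estimate was 0.51 with a standard error of 0.21 (adjusted p = 0.685 by limma), with 0.81 in the lower and 0.10 in the higher set. Its span is shared with the locus of IFT43, which stood at a higher level. TGFB1, the isoform of most tissues, had 4.57, 4.47 and 3.16 FPKM in IUGR pigs, against 4.89, 2.87 and 3.62 FPKM in normal pigs, a log2 fold change of 0.090, below the median of all loci. TGFB2 was the least even of the 39 genes, with 3.18, 2.46 and 0.413 FPKM in IUGR pigs, against 4.07, 0.181 and 0.546 FPKM in normal pigs. Its highest library was 22.6 times its lowest, and high and low pigs were found in both groups, at 1.63 in the lower set and -1.20 in the higher set.

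BMP5 (ENSSSCG00000001478, chromosome 7, 29872631 to 29940598), a BMP close to BMP6 in sequence, had 2.23, 2.37 and 2.2 FPKM in IUGR pigs, against 1.76, 1.54 and 1.17 FPKM in normal pigs. The groups did not overlap and the IUGR pigs were nearly level. On the log2 scale the difference was 0.40 with a standard error of 0.18 (adjusted p = 0.716 by limma), and it was above 0 in both sets, at 0.46 and 0.25. GDF2, known as BMP9, a factor that the liver releases into blood and that acts on endothelium through ACVRL1, had 6.55, 9.42 and 7.58 FPKM in IUGR pigs, against 8.25, 4.30 and 4.07 FPKM in normal pigs, with a log2 fold change of 0.48 and an adjusted p of 0.824 by limma. BMP4 had 2.07, 2.84 and 2.29 FPKM in IUGR pigs, against 2.39, 1.36 and 1.22 FPKM in normal pigs. In GDF2 and BMP4 alike, normal 1 lay within the range of the IUGR pigs and the other normal pigs below it.

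GDF9, known as a factor of the oocyte, was listed at a mean of 12.5 FPKM, the second highest among the ligands, and was the most even of them, at 12.6, 13.6 and 13.2 FPKM in IUGR pigs, against 13.7, 10.3 and 11.4 FPKM in normal pigs. BMP11, the table's name for GDF11, had means of 0.868 FPKM in IUGR and 0.775 FPKM in normal pigs, and shares its span with SARNP. GDF10 had 0.398 FPKM in IUGR and 0.304 FPKM in normal pigs. The log2 fold changes of GDF9, BMP11 and GDF10 were 0.15, 0.074 and 0.099.

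The receptors were present throughout, and all 12 passed the filter. At an unadjusted p under 0.05, 1 of them was higher and 0 were lower in IUGR pigs, against 6.0% and 0.794% of all tested loci. Their median log2 fold change was 0.21. The order of their mean levels was TGFBR2, BMPR2, ACVR1, BMPR1A, ACVRL1, TGFBR3, ACVR1C, ACVR1B, TGFBR1, ACVR2A, ACVR2B and BMPR1B, with means over all pigs that ran from 61.8 to 0.666 FPKM.

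ACVRL1, the type I receptor of endothelium for BMP9 (ENSSSCG00000000232, chromosome 5, 17855279 to 17871426), was the receptor with the lowest p. It had 6.44, 8.93 and 6.92 FPKM in IUGR pigs, against 5.58, 4.30 and 3.93 FPKM in normal pigs. Every IUGR pig was above every normal pig, with means of 7.43 ± 1.32 and 4.60 ± 0.861 FPKM in IUGR and normal pigs (SD, n = 3 pigs per group). The log2 fold change was 0.59 with a standard error of 0.23 (adjusted p = 0.612 by limma). It was 0.54 in the lower set and 0.43 in the higher set, and it ran from 0.36 to 0.71 over the alternatives.

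TGFBR2, the type II receptor that binds TGF-beta, had the highest level of all the genes (ENSSSCG00000011226, chromosome 13, 18707605 to 18726932). It had 79.2, 75.6 and 59.4 FPKM in IUGR pigs, against 80.0, 31.7 and 44.8 FPKM in normal pigs, so that normal 1 lay just above the highest IUGR pig. The log2 fold change was 0.54 with a standard error of 0.35 (adjusted p = 0.862 by limma), at 1.05 in the lower and -0.25 in the higher set. Its type I partner TGFBR1 was far lower, with means of 4.41 and 4.0 FPKM in IUGR and normal pigs and a log2 fold change of 0.11. The co-receptor TGFBR3, betaglycan, had 6.87, 7.11 and 5.12 FPKM in IUGR pigs, against 7.14, 3.10 and 5.74 FPKM in normal pigs.

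Among the BMP receptors, BMPR2 (type II) had 52.3, 57.7 and 52.3 FPKM in IUGR pigs, against 56.9, 50.4 and 38.9 FPKM in normal pigs, a log2 fold change of 0.16 with a standard error of 0.27 (adjusted p = 0.906 by limma). ACVR1, a type I receptor of the hepcidin route, had 31.3, 33.2 and 30.9 FPKM in IUGR pigs, against 34.0, 18.7 and 24.7 FPKM in normal pigs (log2 fold change 0.33, standard error 0.28, adjusted p = 0.884 by limma). BMPR1A, the other type I receptor of that route, had 17.3, 21.3 and 20.3 FPKM in IUGR pigs, against 22.5, 13.7 and 16.2 FPKM in normal pigs (log2 fold change 0.18, standard error 0.26, adjusted p = 0.899 by limma). In ACVR1 and BMPR1A, normal 1 was the highest of all the pigs. BMPR1B, in contrast, was low and uneven, with 1.34, 0.405 and 0.937 FPKM in IUGR pigs, against 0.437, 0.0872 and 0.788 FPKM in normal pigs (log2 fold change 0.40, standard error 0.21, adjusted p = 0.806 by limma), and its span holds the locus of UNC5C as well.

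The activin receptors lay on both sides of the median of all loci. ACVR1B, the main type I receptor for activin, had 3.63, 5.28 and 5.0 FPKM in IUGR pigs, against 6.19, 4.14 and 3.95 FPKM in normal pigs, with a log2 fold change of -0.023. ACVR1C, a type I receptor known for ligands that include activin E, had means of 5.94 and 5.27 FPKM in IUGR and normal pigs and a log2 fold change of 0.15. ACVR2A, a type II receptor shared by activins and BMPs, had 2.22, 2.69 and 2.57 FPKM in IUGR pigs, against 3.27, 2.29 and 1.95 FPKM in normal pigs (log2 fold change 0.011, standard error 0.20, adjusted p = 0.990 by limma). ACVR2B, its relative, had 0.951, 1.06 and 1.2 FPKM in IUGR pigs, against 0.889, 0.695 and 0.657 FPKM in normal pigs. The groups of ACVR2B did not overlap, but the estimate was 0.24 with a standard error of 0.15 (adjusted p = 0.842 by limma).

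The SMADs differed little from one another in how the groups compared. None of the 6 had an unadjusted p under 0.05, their log2 fold changes ran from 0.068 to 0.35, and the smallest adjusted p was 0.858 by limma. SMAD2 had the highest level of them (ENSSSCG00000004505, chromosome 1, 106873027 to 106991844), with 16.1, 20.7 and 17.4 FPKM in IUGR pigs, against 17.5, 13.4 and 13.5 FPKM in normal pigs (log2 fold change 0.27, standard error 0.24, adjusted p = 0.886 by limma). Its values in IUGR pigs enclosed that of normal 1 and lay above those of normal 2 and normal 3.

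Of the SMADs that serve the BMPs, SMAD1 had 9.98, 12.8 and 11.7 FPKM in IUGR pigs, against 12.8, 9.33 and 7.33 FPKM in normal pigs (log2 fold change 0.23, standard error 0.25, adjusted p = 0.897 by limma). SMAD5 came from a locus that joins it with a neighbouring gene, and had 9.39, 10.7 and 10.3 FPKM in IUGR pigs, against 10.8, 7.90 and 7.78 FPKM in normal pigs (log2 fold change 0.20, standard error 0.23, adjusted p = 0.897 by limma). SMAD9 was scarce, with a mean of 0.803 FPKM over all pigs. The inhibitors SMAD6 and SMAD7, which BMP and TGF-beta signals themselves induce, differed in how even they were. SMAD7 had 6.17, 6.45 and 6.04 FPKM in IUGR pigs, against 6.10, 4.05 and 4.05 FPKM in normal pigs (log2 fold change 0.35, standard error 0.22, adjusted p = 0.858 by limma). SMAD6 had 7.60, 7.23 and 6.17 FPKM in IUGR pigs, against 9.12, 4.31 and 4.44 FPKM in normal pigs (log2 fold change 0.26, standard error 0.27, adjusted p = 0.892 by limma). For both inhibitors, normal 2 and normal 3 were nearly equal and lay below every other pig.

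The names in the table hide 2 further SMADs. SMAD4, the partner of all the others, is listed as MADH4, outside the rule, and had 37.0, 47.7 and 37.2 FPKM in IUGR pigs, against 46.7, 24 and 26.4 FPKM in normal pigs (log2 fold change 0.37, standard error 0.30, adjusted p = 0.881 by limma). SMAD3, by its Ensembl identifier, is a locus that the table names SMAD2, and had 7.74, 6.92 and 6.69 FPKM in IUGR pigs, against 6.70, 5.46 and 5.42 FPKM in normal pigs (log2 fold change 0.25, adjusted p = 0.886 by limma). SMAD4 thus stood above every SMAD chosen by name, and neither gene was called.

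The binding proteins, which hold ligands outside the cell, had the highest median of the roles, at 0.68. At an unadjusted p under 0.05, 2 of the 4 were higher, against 6.0% of all tested loci. LTBP2 had the lowest p of the 39 genes (ENSSSCG00000002368, chromosome 7, 103588078 to 103694409). It encodes a matrix protein that binds fibrillin and, unlike its relatives, does not bind latent TGF-beta. It had 8.98, 5.20 and 3.87 FPKM in IUGR pigs, against 2.17, 2.06 and 1.96 FPKM in normal pigs. The normal pigs were almost equal, and every IUGR pig lay above them, IUGR 1 most of all. The means were 6.02 ± 2.65 FPKM in IUGR and 2.07 ± 0.105 FPKM in normal pigs (SD, n = 3 pigs per group), which gave a log2 fold change of 1.13 with a standard error of 0.26 (adjusted p = 0.235 by limma with Benjamini-Hochberg). It was higher in IUGR pigs within both sets, by 1.73 in the lower and 0.79 in the higher. With robust variance estimates it was called (adjusted p = 0.0386), and over the alternatives other than the replicate block its log2 fold change ran from 0.84 to 1.45 and its adjusted p from 0.0386 to 0.683. No other locus overlaps its span.

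LTBP1, the main carrier of latent TGF-beta (ENSSSCG00000008510, chromosome 3, 113229601 to 113535280), had the highest level of the binding proteins, with 38.4, 37.5 and 31.7 FPKM in IUGR pigs, against 36.4, 13.1 and 19.6 FPKM in normal pigs. Unlike LTBP2, it had normal 1 among the IUGR pigs. The log2 estimate was 0.73 with a standard error of 0.34 (adjusted p = 0.732 by limma), at 1.21 in the lower and -0.074 in the higher set. A second locus of LTBP1 with the same span repeated this order of pigs in part, with 21.5, 23.2 and 18.2 FPKM in IUGR pigs, against 23.4, 8.78 and 11.7 FPKM in normal pigs. LTBP3, another carrier, had means of 1.74 and 1.43 FPKM in IUGR and normal pigs, and the limit given for INHBE holds for every gene whose span is shared with other loci.

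BMPER, a secreted protein that binds BMPs and modulates them in endothelium (ENSSSCG00000016665, chromosome 18, 43216761 to 43462333), had 16.5, 25.0 and 23.2 FPKM in IUGR pigs, against 16.0, 8.77 and 17.0 FPKM in normal pigs. IUGR 1 lay between normal 1 and normal 3, and the other IUGR pigs lay above all normal pigs. The log2 fold change was 0.63 with a standard error of 0.30 (adjusted p = 0.755 by limma), and it was above 0 in the lower set at 0.40 and in the higher set at 0.56.

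**Figure D3:**
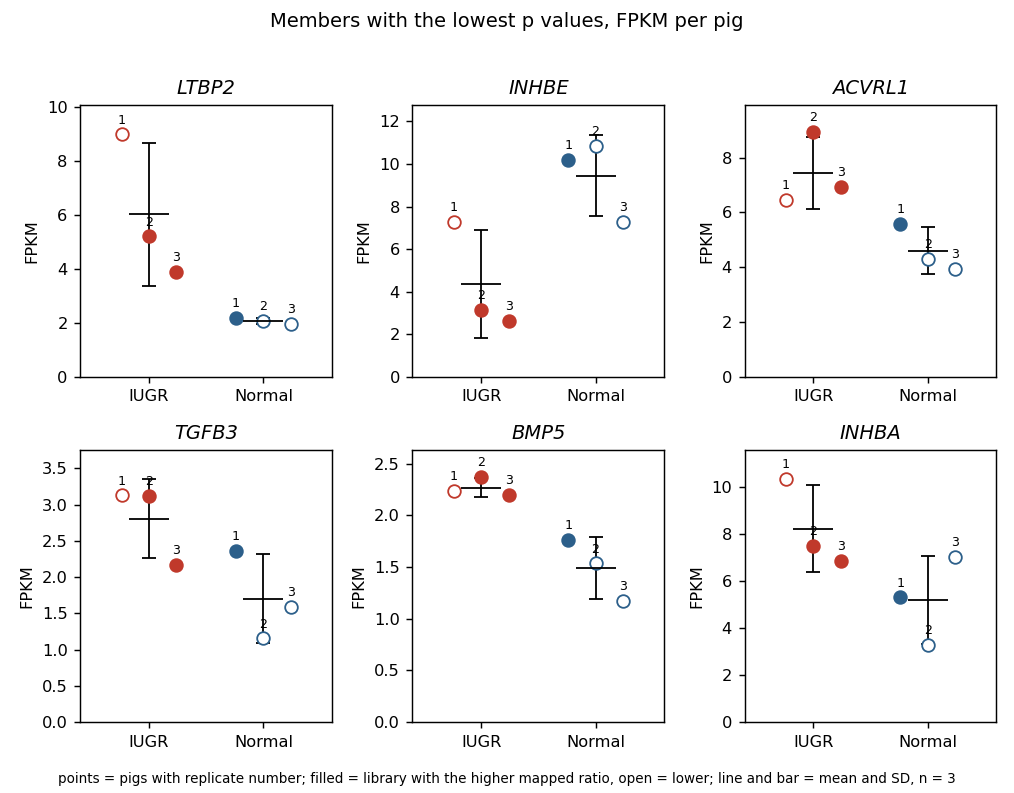
FPKM per pig, from 0, of the 6 genes with the lowest p, IUGR left of normal, with the mean and SD of 3 pigs and open circles for the libraries of lower mapped ratio. LTBP2, ACVRL1 and BMP5 were higher in all IUGR pigs, INHBE was lower, and in TGFB3 and INHBA 1 pig reached into the range of the other group.

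Of the 4 other proteins, BMP1 and TGFBI stood above the median of all loci, and TGFBRAP1 and BMP2K below it. BMP1, a protease that trims procollagen and frees ligands from their carriers, had 10.7, 10.6 and 8.72 FPKM in IUGR pigs, against 9.61, 6.87 and 6.66 FPKM in normal pigs, a log2 fold change of 0.35. TGFBI, a matrix protein induced by TGF-beta, had means of 26.2 and 22.2 FPKM in IUGR and normal pigs, a log2 fold change of 0.26. TGFBRAP1, which associates with TGF-beta receptors, and BMP2K, a kinase named for its induction by BMP2, had log2 fold changes of 0.086 and 0.080, below the 0.15 of all loci. The smallest adjusted p among these 4 was 0.862 by limma.

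Across the 39 genes the libraries of the lower set did not move together. The median FPKM of the 39 was 6.55 in IUGR 1, against 4.16 in normal 2 and 4.07 in normal 3. In the higher set it was 6.45 in IUGR 2, 5.50 in IUGR 3 and 6.19 in normal 1. Normal 1 was the highest library for 18 genes (46.2%, and 43.0% of all tested loci) and IUGR 1 for 11 (28.2%, and 9.42% of all tested loci). Normal 2 was the lowest for 19 genes (48.7%, and 29.8% of all tested loci) and normal 3 for 17 (43.6%, and 50.9%). The estimate was above 0 in both sets for 14 genes, where 29.2% of all tested loci were, namely LTBP2, BMPER, ACVRL1, INHBA, BMP5, BMPR1B, TGFB3, ACVR2B, SMAD2, ACVR1C, BMP4, SMAD7, GDF2 and BMP1. It was below 0 in both for INHBE and ACVR1B, as for 12.9% of all loci. The other 23 genes were above 0 in the lower set and below 0 in the higher set, as were 49.7% of all loci, and 0 genes showed the opposite, against 8.07%. The median difference of the 39 genes was 0.40 in the lower set and -0.061 in the higher set, against 0.19 and -0.084 over all tested loci.

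**Figure D4:**
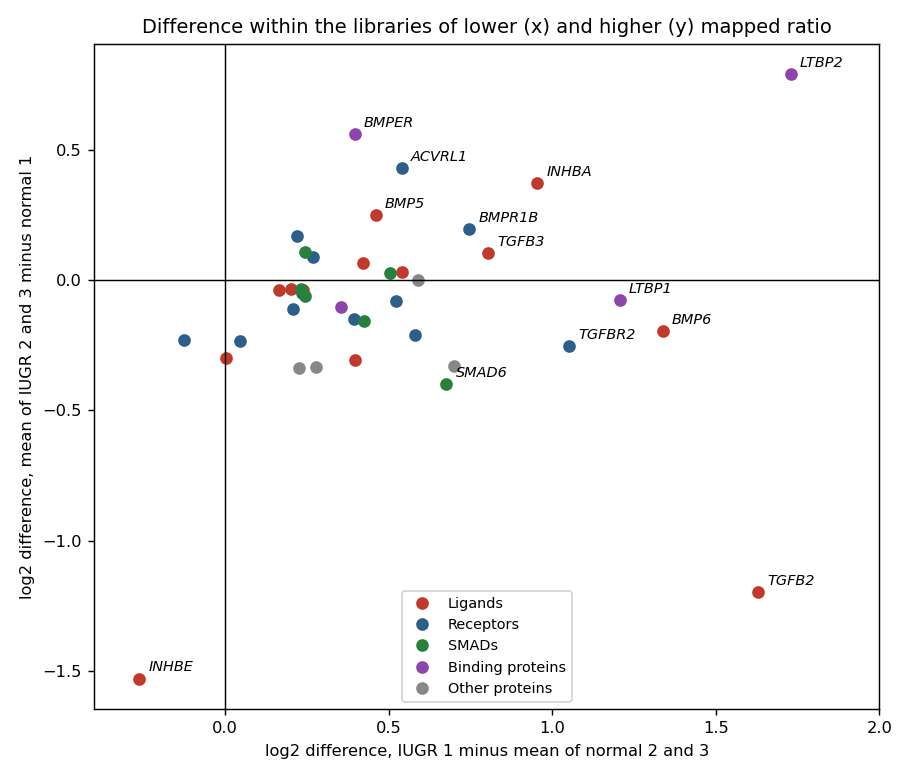
Log2 difference of FPKM + 1, IUGR minus normal, of the 39 genes within the libraries of lower mapped ratio (x, IUGR 1 minus the mean of normal 2 and 3) and of higher mapped ratio (y, the mean of IUGR 2 and 3 minus normal 1), colored by role. LTBP2 lies farthest to the upper right (1.73 and 0.79). INHBE (-0.26 and -1.53) and ACVR1B (-0.12 and -0.23) lie at the lower left, while BMP6, LTBP1, TGFBR2 and TGFB2 lie below 0 in the higher set only.

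For the route from BMP6 to hepcidin, the RNA of BMP6, its receptors, the SMADs and the target gene was measured. Their proteins, receptor activity and SMAD phosphorylation were not. HAMP, which encodes hepcidin, had 2.40, 19.2 and 17.0 FPKM in IUGR pigs, against 226, 84.1 and 131 FPKM in normal pigs. Every IUGR pig lay far below every normal pig, and the log2 fold change was -3.67 with a standard error of 0.58 and an adjusted p of 0.0505 by limma, just over the threshold, which ran from 2.02e-04 to 0.599 over the alternatives other than the replicate block. Its difference was -4.96 in the lower set and -3.57 in the higher set. The RNA of BMP6, ACVR1, BMPR1A, BMPR2, ACVR2A, SMAD1, SMAD5 and SMAD4 had log2 fold changes of 0.011 to 0.80, and none was called. The part of this route in the level of HAMP was not tested. The ratio of HAMP to BMP6, formed after their values were seen, was 0.0426, 0.347 and 0.336 in IUGR pigs, against 3.72, 4.17 and 5.60 in normal pigs.

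Of the other genes of hepcidin control, those that raise hepcidin together with the BMP receptors had estimates above 0, as did 79.2% of all tested loci. HFE2, which encodes the BMP co-receptor hemojuvelin, had 41.4, 57.5 and 53.5 FPKM in IUGR pigs, against 70.0, 46.8 and 33.6 FPKM in normal pigs. Its log2 fold change was 0.067, below the median of all loci. TFR2 and HFE, sensors of iron-laden transferrin, had log2 fold changes of 0.36 and 0.15, and HFE thus stood at that median. TMPRSS6, the protease that cuts hemojuvelin, had a log2 fold change of 0.34. Among 12 tested genes of this list, HAMP was the only one with an unadjusted p under 0.05, where 0.794% of all tested loci were lower. The median of the list was 0.21.

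**Figure D5:**
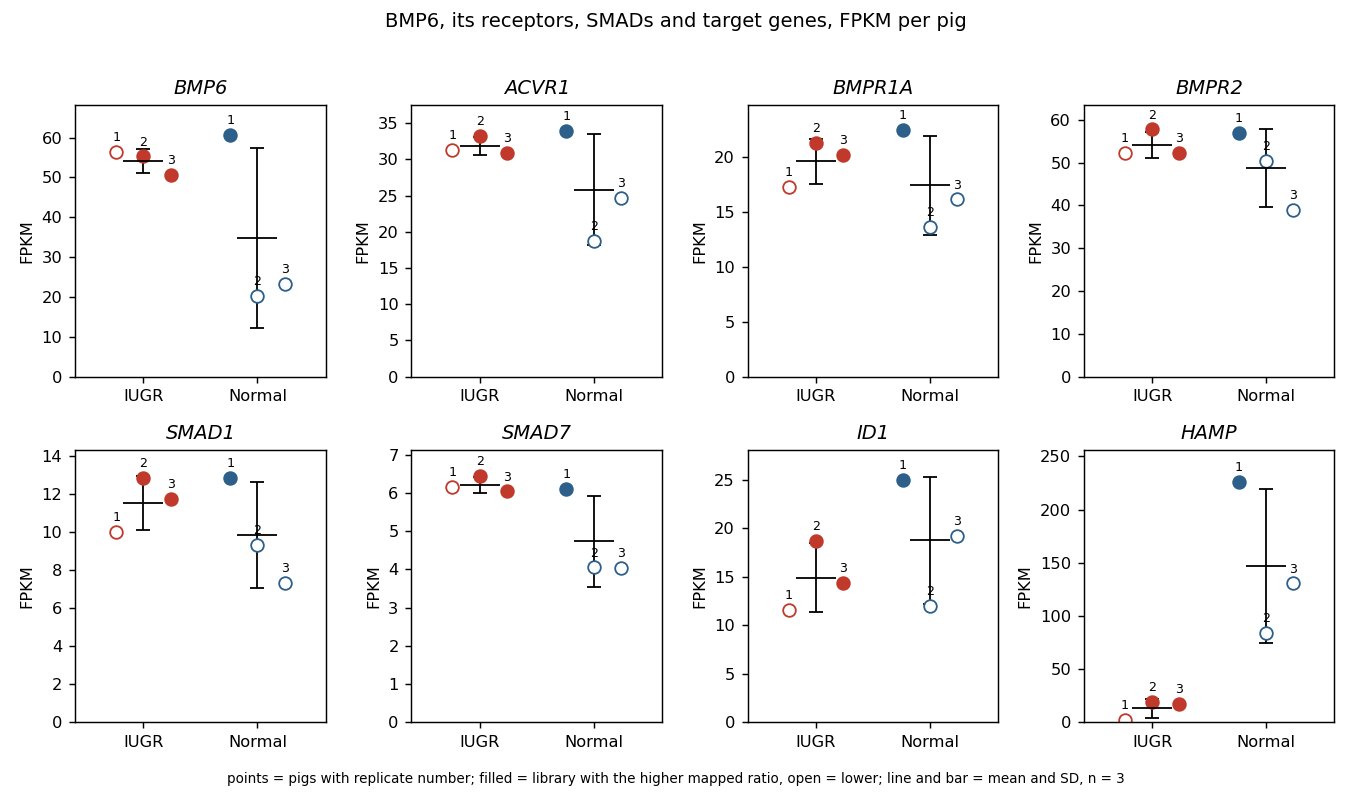
FPKM per pig, from 0, of BMP6, receptors, SMADs and 2 target genes of the hepcidin route, IUGR left of normal, with the mean and SD of 3 pigs and open circles for the libraries of lower mapped ratio. HAMP alone separates the groups, with 2.40 to 19.2 FPKM in IUGR and 84.1 to 226 FPKM in normal pigs.

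Target genes of the BMP SMADs beside HAMP were also measured. Of 11 tested genes of the list, 0 were higher and 1, HAMP, was lower at an unadjusted p under 0.05, with a median of -0.017. Over all tested loci 6.0% were higher and 0.794% lower. ID1, a direct target, had 11.6, 18.7 and 14.4 FPKM in IUGR pigs, against 25.0, 12 and 19.2 FPKM in normal pigs (log2 fold change -0.28, standard error 0.30, adjusted p = 0.895 by limma), and it was below 0 in both sets, at -0.36 in the lower and -0.58 in the higher. Its estimate ran from -0.64, with the mapped ratio as a covariate, to -0.052, without normal 1. After sum scaling it was -0.54 (adjusted p = 0.443 by limma), with an unadjusted p under 0.05. Under that scaling 5.59% of all tested loci were lower at such a p, against 0.794% in the main fit. The ratio of ID1 to BMP6, also formed after the values were seen, was 0.206, 0.338 and 0.284 in IUGR pigs, against 0.412, 0.593 and 0.824 in normal pigs. This ratio did not overlap between the groups, while ID1 and BMP6 each did, but its lack of overlap is not a test. ID2 had 33.6, 34.3 and 32.1 FPKM in IUGR pigs, against 52.2, 28.8 and 25.8 FPKM in normal pigs, and ID3 had 5.91, 5.31 and 3.99 FPKM in IUGR pigs, against 9.33, 4.65 and 3.52 FPKM in normal pigs. In ID1, ID2 and ID3 normal 1 was the highest pig, and the IUGR pigs lay within the range of the normal pigs except for IUGR 1 in ID1.

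Most target genes of TGF-beta stood above the median of all loci, 17 of the 20 tested, although none was called. At an unadjusted p under 0.05, 7 were higher and 0 lower, where 6.0% of all tested loci were higher, and the median was 0.49, against 0.15 over all loci. COL3A1 is counted among the 7, but its estimate failed in normal 1, where it was listed at 0, and without it 6 of 19 were higher, with a median of 0.47. LTBP2 is one of these 7. COL1A2, a chain of type I collagen, had 21.6, 23.5 and 19.0 FPKM in IUGR pigs, against 14.7, 7.23 and 7.44 FPKM in normal pigs (log2 fold change 1.12, adjusted p = 0.327 by limma). COL1A1, the other chain, had 28.1, 21.1 and 12.9 FPKM in IUGR pigs, against 10.8, 10.9 and 8.45 FPKM in normal pigs (log2 fold change 0.92, adjusted p = 0.476 by limma). The groups did not overlap in either collagen gene, and COL1A2 was called without normal 1 (1.42, adjusted p = 0.0312), over a range of 0.0312 to 0.689 in the alternatives.

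Marker genes of stromal cells gave counts of the same kind. Of 11 tested markers of stellate cells and fibroblasts, 7 were higher at an unadjusted p under 0.05 and 0 lower, against the 6.0% of all tested loci that were higher, with a median of 0.71. Without COL3A1 there were 6 of 10, with a median of 0.64. In all, 3 of these markers, COL1A1, COL3A1 and ACTA2, are also in the list of targets. Their FPKM, summed without COL3A1, came to 119 to 149 in IUGR pigs, against 60.7 to 117 in normal pigs, with LRAT at 10.5 to 12.2 FPKM in IUGR and 5.24 to 9.04 FPKM in normal pigs. Markers of endothelium, which makes BMP6 and ACVRL1 in liver, summed to 429 to 533 FPKM in IUGR pigs, against 240 to 479 FPKM in normal pigs, with 2 of 9 higher and a median of 0.43. Neutrophil markers summed to 10.5 to 19.1 FPKM in IUGR pigs, against 2.79 to 7.83 FPKM in normal pigs, with 3 of 4 higher and MPO under the filter. Markers of Kupffer cells had a median of 0.15, with 0 of 8 past an unadjusted p of 0.05 and CD163 under the filter, those of hepatocytes 0.0018 (0.20 without TF), those of cholangiocytes 0.30 and those of lymphocytes 0.085. The hepatocyte markers APOA1 and TTR were at high levels in every library, while ALB and TF were listed at 0 where their estimates had failed. The part of these cell types in the values of LTBP2, ACVRL1, the collagens and the other genes was not tested.

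Proteins that hold, release or block the ligands gave a mixed picture. Of 9 tested genes that keep TGF-beta latent or activate it, 3 were higher and 0 lower at an unadjusted p under 0.05. Over all tested loci these shares were 6.0% and 0.794%. The median of the 9 genes was 0.25. FBN1, the fibrillin on which the LTBPs are anchored, had 10.9, 12.4 and 9.98 FPKM in IUGR pigs, against 8.40, 5.79 and 6.26 FPKM in normal pigs (log2 fold change 0.64, adjusted p = 0.579 by limma), without overlap. LRRC32, which presents latent TGF-beta on cells, had a log2 fold change of 0.45, and THBS1, an activator of the latent form, had 0.69, each with IUGR 1 highest. Of 9 tested antagonists and carriers, 2 were higher by the same measure, against the same 6.0%, with a median of 0.46. CHRDL1, an antagonist of BMPs, had 1.05, 2.2 and 1.54 FPKM in IUGR pigs, against 0.765, 0.905 and 0.780 FPKM in normal pigs (log2 fold change 0.49, adjusted p = 0.579 by limma). DCN, decorin, which binds TGF-beta, had a log2 fold change of 0.83, with normal 1 among the IUGR pigs, and CRIM1 had 0.46.

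The regulators inside the cell and the co-receptors gave no gene with an unadjusted p under 0.05. The 25 tested intracellular regulators had a median of 0.12, under that of all loci, and the lowest p values belonged to SMURF1 and SMURF2, ubiquitin ligases of SMADs and receptors, at 0.27 and 0.33, and to TGIF1, a repressor that acts with SMADs, at 0.38. Of the 5 tested co-receptors, NEO1, a receptor that binds hemojuvelin, ENG, the endoglin of endothelium, and BAMBI, a decoy receptor, had log2 fold changes of 0.36, 0.44 and 0.25. Of 7 further ligands of the family looked for, 2 had a locus and 0 passed the filter. No gene of any of these lists was called by limma.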

How the data were processed

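The authors aligned paired reads of poly(A) RNA with TopHat2 2.0.14 on a Bowtie2 2.0.6 index, used Cufflinks 2.2.1 for assembly and Cuffdiff 2.1.1 for FPKM. The deposited table holds these FPKM for every library, with a status for each estimate and no counts or strand. Per the labels the build is Sscrofa10.2, while the paper's text names a later one. The labels also name edgeR 3.2, which needs counts and was not used. No mean or unnamed sample column was used.

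Symbols came from the table or, by Ensembl identifier, from a table of gene names (14788 and 1665 known loci). The comparison of groups used lmFit and eBayes, with a trend, of limma 3.58.1 (R 4.3.3) on log2(FPKM + 1), with no further scaling, over 14727 known loci, of which 33 had a failed estimate in some library. The same code was first tested on simulated data for these loci. The genes, lists and tests were chosen with earlier results of these data known, so none is independent of them. Every gene of the rule may be named. Full values are given for the 10 lowest p values, the highest level of each role and the hepcidin route. Of each further list up to 3 genes of lowest p were named, beside HAMP, ID1, ID2 and ID3, and some genes of these lists are not reported here. Other genes of the lists were named for their roles. The library sets by mapped ratio follow the study's alignment summary. Alternatives changed the pseudocount, filter, loci, scaling, variance model, covariate, thresholds, block and libraries. Tables and plots used Python 3.11.15, pandas 2.3.3, numpy 2.4.6 and matplotlib 3.10.9.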

Additional observations from a re-analysis of the deposited data

How the results depend on the processing

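The count of called genes among the 39 stayed at 0 in both directions except for 1 higher (LTBP2) with robust variance or with the replicate block, and 1 lower (INHBE) without IUGR 1. The labels do not say whether pigs of the same replicate number were littermates. The correlation of deviations between pigs of the same number was -0.22, -0.072 and -0.17. Those deviations were taken from the mean of each small group and may also carry the split by mapped ratio, so they cannot decide the pairing. With the replicate block, LTBP2 had an adjusted p of 0.00772 by limma, and 166 known loci were called higher and 79 lower. In that fit 3 of the genes were higher at an unadjusted p under 0.05, against 5.56% of all loci. Known loci called higher, 1 in the main fit, numbered 3 at a pseudocount of 0.1, 5 at a mean FPKM of at least 1 and 5 without failed estimates. They numbered 30 with robust variance, 2 once the mapped ratio was a covariate and 10 with IUGR 2 and IUGR 3 averaged. Known loci called lower, 2 in the main fit, numbered 1 at pseudocounts of 0.1 and 0.01. They numbered 0 without a filter, after median, sum or quantile scaling, without a trend and at the study's thresholds. They were 6 at a mean of at least 1, 5 without failed estimates, 6 with robust variance, 4 with the covariate and 6 with the averaged pigs. Among all assembled loci, 95962 tested, known or not, 2 were called higher and 5 lower. Leaving out each pig in turn gave 3 to 128 higher and 1 to 30 lower.

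The 6 genes higher at an unadjusted p under 0.05 (6.0% of all loci) became 2 with all assembled loci (2.85%). They became 3 after sum scaling (3.75%), with the covariate (2.62%) and with the averaged pigs (3.47%). With a pig left out they ran from 1 without normal 2 (3.50%) to 17 without normal 1 (28.4%). The 1 lower became 0 with the covariate (3.18% of all loci, against 0.794%). Genes without overlap, 4 higher and 1 lower (8.39% and 1.22% of all loci), became 8 and 2 after median scaling (9.48% and 6.29%). They were 11 higher without IUGR 3 (12.9%) and 24 higher without normal 1 (51.1%). After quantile scaling they were 8 and 2, after sum scaling 3 lower, and with another pig left out no fewer than 5 higher. The shares of all loci for these last counts are not given here, so they are not read as a result. Genes called lower among the 39 ran from 0 to 1 with a pig left out. The median of the 39 was 0.035 after sum scaling and 0.13 to 0.41 with a pig left out. Its distance from all loci was 0.28 with all assembled loci.

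Estimates near 0 turned sign. BMP2 was -0.014, -0.032 and -0.047 under scaling by the median, the sum and quantiles, -0.32 with the covariate, -0.15 with the factor, -0.038 with the averaged pigs and -0.12 to 0.24 with a pig left out. ACVR2A was -0.12, -0.18, -0.14, -0.21, -0.094 and -0.018 in that order, and -0.10 to 0.16 with a pig left out. BMPR2 was -0.020, -0.11 and -0.055 under these scalings. After sum scaling BMPR1A was -0.074, SMAD1 -0.016 and SMAD5 -0.052, and with the covariate BMPR1A was -0.076, SMAD1 -0.066 and TGIF1 -0.079. With a pig left out ID2 ran from -0.21 to 0.28 and ID3 from -0.35 to 0.25. The cause of these shifts was not tested. Without counts, the depth behind low values such as BMP2, BMPR1B and TGFB2 is unknown.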

Other observations

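Of the symbols followed, 9 lay on more than 1 locus, and for several of them the loci did not repeat each other. The second locus of TGFBI, with the same span, had 23.3, 20.6 and 15.2 FPKM in IUGR pigs, against 22.6, 14.2 and 16.5 FPKM in normal pigs, and so placed IUGR 3 below normal 3, which the first locus did not. A second locus named BMP2, with another Ensembl identifier, had 0.446, 0.310 and 0.196 FPKM in IUGR pigs, against 0, 0.313 and 0.508 FPKM in normal pigs, with normal 1 listed at 0 where the first locus had its highest value. The second locus of ACVR2B had 0.280, 0.438 and 0.0607 FPKM in IUGR pigs, against 0.217, 0.331 and 0.431 FPKM in normal pigs, and overlapped between the groups where the first did not. The second locus of TGFBR1, on an unplaced scaffold, had 0.582, 0.402 and 0.427 FPKM in IUGR pigs, against 0.641, 0.364 and 0.291 FPKM in normal pigs. Summing the loci of each symbol left every named gene on its side of the threshold.

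Between pigs, 7 of the 39 genes (17.9%) had a highest value more than 3 times their lowest, against 14.5% of the tested loci above 0 in all libraries. They were TGFB2, BMPR1B, BMP2, LTBP2, INHBE, INHBA and BMP6.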
